A study of Rattus norvegicus with 15 samples.

Results

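The genes of transforming growth factor beta (TGF-beta), bone morphogenetic protein (BMP) and activin signalling were followed in the rat aorta. Members are defined by gene name, and 56 genes with names of these families, of 15739 features in all, are described here. They comprise 15 genes of ligand families, 5 genes for proteins of ligand latency and matrix binding, 12 receptor genes, 10 genes for Smads and their modulators, 9 genes for secreted antagonists and their relatives, and 5 target genes. All 56 have a value on every array. Values of 2 members, Bmp6 on 1 array and Gdf5 on 3 arrays, lay below the highest array minimum of -2.71, a level under which the arrays cannot all be compared.

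TGF-beta is made as a latent complex, tied to the matrix of elastic vessels by latent TGF-beta binding proteins, and is released by integrins and proteases. Ligands bind pairs of type I and type II receptors, which phosphorylate Smads: the TGF-beta and activin branch uses one set of Smads, the BMP branch another, and both share Smad4. Secreted antagonists such as follistatin, gremlin and the chordins hold ligands away from receptors, and inhibitory Smads close a feedback loop. In the aorta these pathways are known for their part in smooth muscle differentiation, matrix production, fibrosis and vascular calcification, the last being common in chronic kidney disease.

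Arrays measured aortic RNA of Sprague Dawley rats, an outbred laboratory strain, with 15 one-colour arrays in 5 groups of 3. In 4 groups the rats had undergone 5/6 nephrectomy (NX), a surgical model of uremia. These rats were injected intraperitoneally 3 times a week over 12 days with vehicle, with paricalcitol (0.08 µg/kg), with alfacalcidol (0.04 µg/kg) or with VS-105 (0.01 µg/kg). Paricalcitol is an active vitamin D analogue, alfacalcidol is a vitamin D prodrug activated in the liver, and VS-105 is given by code name as another vitamin D receptor agonist. The sham group was of matching age and received no treatment, so nephrectomy and injection cannot be told apart in comparisons with sham. A group held 8 to 12 rats, and each array carried the RNA of 2 of them, pooled at random.

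Values are on the deposited log2 scale, where a difference of 1 is a doubling. Each probe has its own brightness, so levels are compared between arrays for 1 gene and never between genes. Array medians lay between 2.33 and 2.64. The mean of 11 of 12 contractile smooth muscle genes lay between 7.04 and 8.14 on the 15 arrays. Such a level does not by itself show that the RNA is aortic. Other tissue varied between arrays. The mean of 8 intestinal epithelium genes was -0.28 and 2.88 on NX-vehicle arrays 2 and 3 and at most -1.95 on the others, and the mean of 10 skeletal muscle genes was 3.64 on NX-VS-105 array 1 and at most 0.37 elsewhere. In whole tissue, fewer cells of a type and less RNA per cell cannot be told apart.

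Across the 10 comparisons, 8 of the 56 members passed the test in at least 1, giving 10 differences in all. These 8 are 14.3% of the members, beside 19.6% of all features that passed in at least 1 comparison. All 10 lay between a compound group and sham, and no member passed between NX-vehicle and sham, between a compound and NX-vehicle or between compounds. Tests were limma's moderated tests on all 15 arrays, and a gene passed at an adjusted p under 0.05 after Benjamini-Hochberg adjustment over the 15739 features. The plot of the 8 members shows each array, and the map of changes shows all 56.

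**Figure D1:**
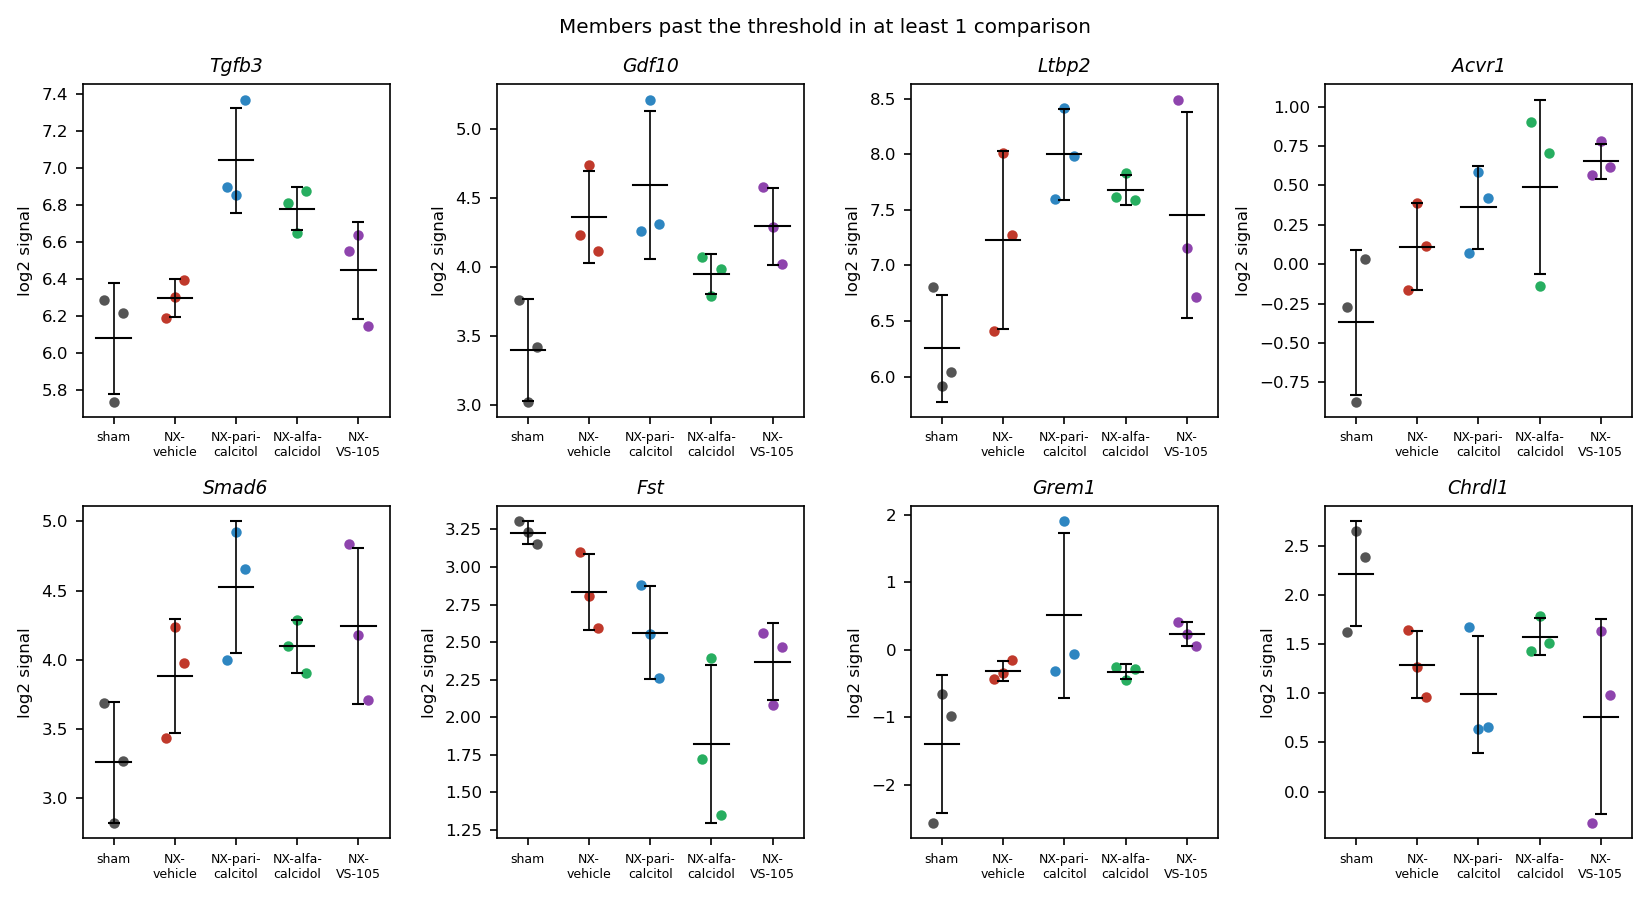
Log2 signal on each of the 15 arrays for the 8 members that passed in at least 1 comparison, with 1 panel per gene and its own vertical scale. Points are arrays, long bars group means and whiskers 1 SD (n = 3). Fst is lower on every NX array than on every sham array, and Gdf10 and Grem1 are higher on every NX array.

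Promoter sequence is shown for the 3 of these 8 genes whose RefSeq window lies at the annotated start of the gene (GRCr8 assembly), so that the upstream sequence of a BMP ligand can be read beside that of a pair of BMP antagonists. Capitals mark a match to CAGAC (the Smad box) or GGCGCC (a GC-rich box bound by BMP Smads), searched on both strands. Each is written 5′ to 3′ on the gene's strand and ends before the annotated gene start.
Gdf10, chr16:9243262-9243433, plus strand: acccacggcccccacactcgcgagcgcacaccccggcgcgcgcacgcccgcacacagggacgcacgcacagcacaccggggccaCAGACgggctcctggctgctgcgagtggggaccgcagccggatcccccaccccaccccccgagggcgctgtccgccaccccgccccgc
Grem1, chr3:120978320-120978569, minus strand: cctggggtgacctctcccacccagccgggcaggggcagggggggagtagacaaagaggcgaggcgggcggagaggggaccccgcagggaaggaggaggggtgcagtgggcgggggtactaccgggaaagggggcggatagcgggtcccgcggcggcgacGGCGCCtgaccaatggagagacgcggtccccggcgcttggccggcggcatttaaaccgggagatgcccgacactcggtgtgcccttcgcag
Chrdl1, chrX:111789685-111789911, minus strand: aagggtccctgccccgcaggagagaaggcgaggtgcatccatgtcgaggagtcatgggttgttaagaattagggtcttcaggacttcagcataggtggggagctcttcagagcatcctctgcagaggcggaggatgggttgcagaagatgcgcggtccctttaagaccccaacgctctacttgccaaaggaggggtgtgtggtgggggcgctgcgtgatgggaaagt
The Gdf10 stretch of 172 bases held 1 CAGAC, the Grem1 stretch of 250 bases held 1 GGCGCC, and the Chrdl1 stretch of 227 bases held neither. A RefSeq window was found for 46 of the 56 members. For each of them 1 window was taken, the one nearest the annotated gene start. The rat windows set beside them are all those listed, so the sets were not chosen alike. GGCGCC occurred in 11 of these 46 windows of 250 bases (23.9%) and in 8.69% of 33469 rat windows. CAGAC occurred in 11 of 46 (23.9%) and in 42.9% of all windows. Mean GC content was 63.7% in the members' windows and 52.2% in all. The E-box CACGTG was present in 1 member window (2.17%) and in 5.59% of all. The direct repeat bound by the vitamin D receptor, in its consensus letters, was in 0 member windows and in 0.0209% of all. Such matches describe the letters of these windows only.

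Nephrectomy without a compound was addressed by NX-vehicle against sham. The BMP target gene Id1, the ligand gene Bmp6 and the BMP-family gene Gdf10 had higher means in NX-vehicle, with all 3 arrays above all sham arrays, but 0 of 56 members passed limma's test, where 0% of all features passed. At an unadjusted p under 0.05 there were 5 members, or 8.93%, and 9.04% of all features. Gdf10 differed by 0.97 (SE 0.27, adjusted p = 0.438), Bmp6 by 1.95 (SE 0.61, adjusted p = 0.457) and Id1 by 1.34 (SE 0.42, adjusted p = 0.457). The median member differed by 0.11 and the median of all features by -0.04. The arrays of the groups did not overlap for 9 members, or 16.1%, against 10.6% of all features.

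The compounds were set against NX-vehicle. The smallest p-value was that of the activin antagonist Fst with alfacalcidol, of the TGF-beta isoform gene Tgfb3 with paricalcitol and of the Smad corepressor gene Skil with VS-105, and no member passed limma's test in any of these 3 comparisons. With VS-105 0 of 56 members passed, beside 4.55% of all features, and 6 were under 0.05 unadjusted, or 10.7% (22.7% of all features were). With paricalcitol 0 members passed, beside 0% of all features, and 4 were under 0.05 unadjusted (14.8% of all features were). With alfacalcidol 0 passed, beside 0.0445% of all features, and 9 were under 0.05 unadjusted (18.2% of all features were). Arrays of the groups did not overlap for 2 members with paricalcitol (16.7% of all features), 9 with alfacalcidol (23.5%) and 9 with VS-105 (24.1%), which were 3.57%, 16.1% and 16.1% of the members. The 3 smallest p-values with paricalcitol were those of Tgfb3 (0.75 higher, SE 0.19, adjusted p = 0.259), Gdf11 (0.41 higher, adjusted p = 0.309) and Ltbp1 (0.76 higher, adjusted p = 0.321). With alfacalcidol they belonged to the activin antagonist Fst (-1.01, SE 0.25, adjusted p = 0.126), the matrix gene Tgfbi (-0.45, adjusted p = 0.204) and the BMP antagonist Chrd (-0.43, adjusted p = 0.211). With VS-105 they belonged to Skil (-0.74, adjusted p = 0.0795), Chrd (-0.39, adjusted p = 0.126) and the shared Smad gene Smad4 (-0.24, adjusted p = 0.172). In the alfacalcidol comparison the median of all features was 0.20, and the members' median 0.09. With array medians subtracted, which moved the median of all features to 0.04, Tgfbi (-0.61, adjusted p = 0.0333) and Chrd (-0.59, adjusted p = 0.0416) passed (3.57% of members, beside 0.966% of all features), and in the VS-105 comparison Skil (-0.83, adjusted p = 0.0438) and Chrd (-0.48, adjusted p = 0.0464) passed (3.57%, beside 4.42%). Skil in the VS-105 comparison also passed without sham array 1, which gave 1 member there.

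Each treated uremic group was also set against sham. The 3 comparisons share the sham arrays, so their values stand side by side and are not independent. With paricalcitol 5 members were higher and none lower: Tgfb3, Gdf10, Ltbp2, Smad6 and Grem1, or 8.93% of members beside 6.98% of all features (5.51% higher). With alfacalcidol 1 member, Fst, was lower, or 1.79% beside 1.75% of all features (0.578% lower). With VS-105 Acvr1 and Gdf10 were higher and Fst and Chrdl1 lower, 4 members or 7.14% beside 15.9% of all features (7.88% higher, 8.01% lower). The share of members that passed was thus close to or below that of all features for alfacalcidol and VS-105. For paricalcitol it was somewhat above, but below with array medians subtracted (5.36%, beside 6.51%) and with quantile normalization (5.36%, beside 6.25%). Arrays of the groups did not overlap for 18 members with paricalcitol (32.1%, and 32% of all features), 21 with alfacalcidol (37.5% and 32.3%) and 18 with VS-105 (32.1% and 36.9%). Unadjusted p was under 0.05 for 24, 18 and 21 members (42.9%, 32.1% and 37.5%), and for 29.8%, 26.7% and 33.9% of all features. The median member differed from sham by 0.27, 0.23 and 0.16 in the order paricalcitol, alfacalcidol and VS-105, and the median of all features by 0.10, 0.14 and 0.06. With array medians subtracted the VS-105 comparison had 2 members higher and 7 lower (16.1% in all, beside 20.3% of all features), and with quantile normalization 3 higher and 8 lower (19.6%, beside 18.9%).

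The counts moved with single arrays. The share of all features that passed in each of these fits is not given here. The moves are therefore not read as particular to the members. Paricalcitol against sham had 0 members without sham array 2 or without NX-paricalcitol array 2 or 3, 2 without NX-vehicle array 3, NX-alfacalcidol array 1 or 3 or NX-VS-105 array 2, 3 without sham array 1 or 3, 8 without NX-vehicle array 1 and 9 without NX-paricalcitol array 1. VS-105 against sham had 0 members without NX-VS-105 array 1 or 3, 1 without sham array 1, 2 without sham array 2 or 3, NX-vehicle array 3 or NX-alfacalcidol array 1 or 3, 7 without NX-paricalcitol array 1 and 8 without NX-vehicle array 1. For alfacalcidol against sham, leaving out sham array 2 or NX-alfacalcidol array 1 or 3 gave 0 members, and leaving out sham array 1, NX-alfacalcidol array 2 or NX-VS-105 array 1 gave 2. When each comparison was fitted on its own 2 groups, no member passed in any of these 3 comparisons.

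**Figure D2:**
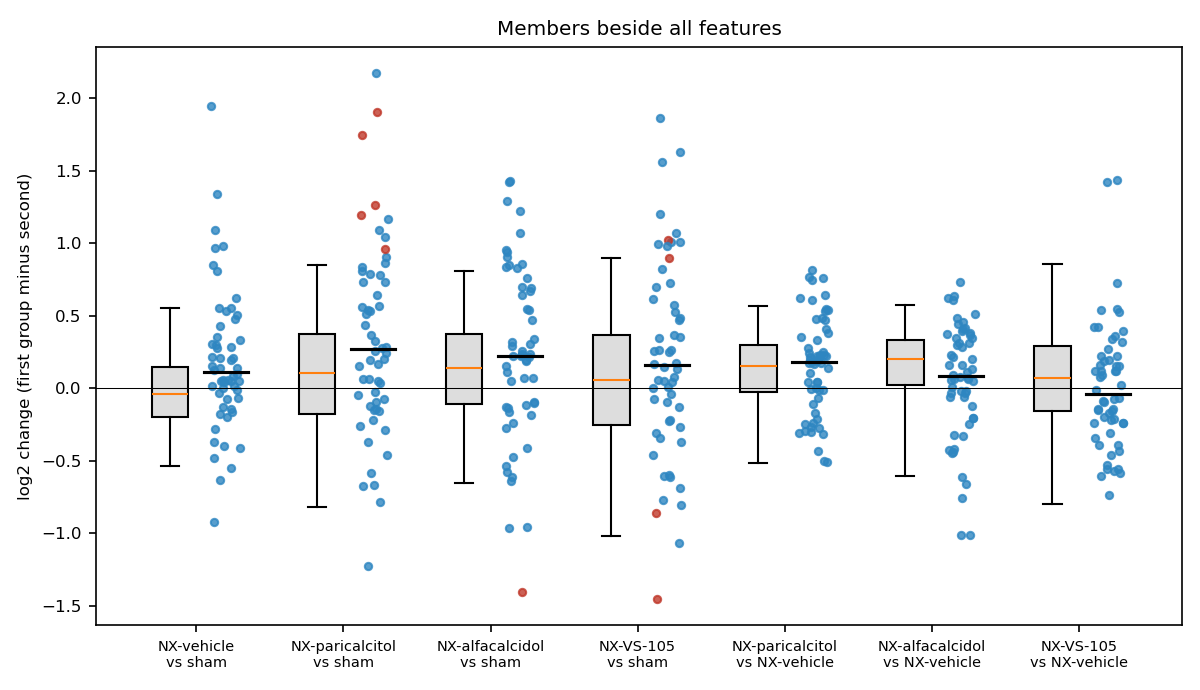
Change on the log2 scale, first group minus second, of the 56 members (points) beside all 15739 features (boxes from the 25th to the 75th percentile, the median as a line and whiskers from the 5th to the 95th percentile) in 7 comparisons. Red points are members that passed and black bars the members' medians. The members' median lies above that of all features against sham (0.27 and 0.10 with paricalcitol) and below it with VS-105 against NX-vehicle (-0.04 and 0.07).

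Among the ligands, Tgfb3 and Gdf10 were higher with paricalcitol than in sham, and Gdf10 also with VS-105. Tgfb3 encodes one of the TGF-beta isoforms. Its signal was 6.29, 5.74 and 6.22 on the sham arrays and 6.19, 6.31 and 6.39 on the NX-vehicle arrays. It was 6.90, 6.86 and 7.37 with paricalcitol, 6.81, 6.65 and 6.88 with alfacalcidol, and 6.55, 6.64 and 6.15 with VS-105. All paricalcitol and alfacalcidol arrays thus lay above all sham and NX-vehicle arrays, while VS-105 array 3 lay among them. Tgfb3 rose by 0.96 between sham (6.08 ± 0.30, SD, n = 3) and paricalcitol (7.04 ± 0.29, SD, n = 3), a 1.95-fold difference (SE 0.19, adjusted p = 0.0223). It was 1 of the 2 members that passed limma's F test over the 5 groups (adjusted p = 0.0384), where 6.16% of all features did. Alfacalcidol stood 0.70 above sham (SE 0.19, adjusted p = 0.0650). The paricalcitol difference did not pass without sham array 2 or NX-paricalcitol array 2 or 3 (adjusted p between 0.0689 and 0.0884).

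Gdf10 encodes a BMP-family ligand also known as BMP-3b. Its signal was 3.76, 3.02 and 3.42 in sham, 4.23, 4.74 and 4.12 in NX-vehicle, 4.26, 5.21 and 4.31 with paricalcitol, 4.07, 3.79 and 3.98 with alfacalcidol, and 4.58, 4.29 and 4.02 with VS-105. Every NX array was above every sham array, with alfacalcidol array 2 the closest to them. Gdf10 rose by 1.20 against sham with paricalcitol (SE 0.27, adjusted p = 0.0318) and by 0.90 with VS-105 (SE 0.27, adjusted p = 0.0429). Compared with NX-vehicle the paricalcitol mean was 0.23 higher and the VS-105 mean 0.07 lower, and neither difference passed. The paricalcitol difference was lost without sham array 2 or NX-paricalcitol array 2 or 3 (adjusted p up to 0.144), and the VS-105 difference without any 1 of 9 arrays: the 3 of sham, the 3 of NX-VS-105, NX-vehicle array 3 and NX-alfacalcidol arrays 1 and 3 (up to 0.134).

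No other ligand gene passed. Tgfb1, the most studied TGF-beta isoform, was 1.69, 1.15 and 1.65 in sham, 1.30, 2.15 and 1.88 in NX-vehicle, 1.90, 2.64 and 2.67 with paricalcitol, 2.44, 1.86 and 2.27 with alfacalcidol, and 3.14, 2.42 and 1.94 with VS-105. All 9 compound arrays were above all sham arrays, and the NX-vehicle arrays overlapped with sham and with each compound. Its differences from sham were 0.91 with paricalcitol (adjusted p = 0.0902), 0.69 with alfacalcidol (adjusted p = 0.193) and 1.01 with VS-105 (adjusted p = 0.0519). Its highest value, 3.14, was on NX-VS-105 array 1, the array with the high skeletal muscle genes. Within each group it was lowest on the array with the highest mean of 7 white adipocyte genes. The part of these tissues was not tested. Tgfb1 is named outside the rule for named genes, after its values were seen. Tgfb2, the remaining isoform, differed from sham by 0.14 to 0.33 in the 4 NX groups. The growth and differentiation factor genes Gdf6, Gdf7 and Gdf11 and the inhibin alpha gene Inha differed from sham by -0.34 to 0.53. Bmp3 was 0.11 to 0.67 below sham and Bmp7, a BMP studied in kidney injury, 0.16 to 0.95 below sham, and neither passed in any group.

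Bmp6, a BMP known for its part in iron sensing and bone, is one of 2 members in the authors' deposited list of 89 genes with folds against sham. A place in that list is not read here as a change in every NX group. Its signal was -1.77, -3.02 and -1.07 in sham, -0.92, 0.78 and 0.12 in NX-vehicle and 0.25, 0.52 and -0.11 with paricalcitol. With alfacalcidol it was 0.28, -1.94 and -0.33, and with VS-105 0.24, -0.95 and -0.47. The alfacalcidol group overlapped with sham through array 2, and the other NX groups did not. The authors' deposited table gives folds of 3.86 for vehicle, 4.51 for paricalcitol, 2.45 for alfacalcidol and 2.95 for VS-105, with unadjusted p-values from 0.00188 to 0.0423. After adjustment over all features the values here were 0.457, 0.0510, 0.197 and 0.0955 in that order, and Bmp6 signal was near the low end of the arrays.

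Inhba, the subunit of activin A, pointed the other way, at 6.33 ± 0.19 in sham and 5.57 ± 0.42 with VS-105 (SD, n = 3, -0.77, adjusted p = 0.0548), and is likewise named after its values were seen. Gdf5, a cartilage and joint ligand, differed from sham by -0.97 to 0.57 over the 4 NX groups. Bmp1, which is a procollagen protease and not a ligand despite its name, differed from sham by at most 0.22 in size. Gdf15, a stress-induced hormone, had means from -1.07 in sham to -0.26 in NX-vehicle, with overlapping arrays.

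Among the latency and matrix genes, Ltbp2 was higher with paricalcitol than in sham. Ltbp2 encodes a microfibril protein of the latent TGF-beta binding protein family that, unlike its relatives, does not bind latent TGF-beta. Its signal was 6.80, 5.91 and 6.04 in sham, 6.41, 8.01 and 7.28 in NX-vehicle, 7.60, 8.42 and 7.99 with paricalcitol, 7.61, 7.83 and 7.59 with alfacalcidol, and 8.49, 7.15 and 6.71 with VS-105. Paricalcitol and alfacalcidol arrays all lay above sham, whereas the NX-vehicle and VS-105 groups each had 1 array within the sham range. Ltbp2 rose by 1.75 against sham with paricalcitol, a 3.36-fold difference (SE 0.46, adjusted p = 0.0444). Paricalcitol against NX-vehicle (means 8.00 and 7.23) did not pass. Against sham the differences were 1.42 with alfacalcidol (adjusted p = 0.0899) and 1.20 with VS-105 (adjusted p = 0.0887), and the NX-vehicle mean was 0.98 above sham (adjusted p = 0.555). The paricalcitol difference did not pass without any 1 of 9 arrays, the 3 of sham, NX-vehicle array 3, NX-paricalcitol arrays 2 and 3, NX-alfacalcidol arrays 1 and 3 and NX-VS-105 array 2 (adjusted p between 0.0510 and 0.184), nor with array medians subtracted (0.0505).

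Tgfbi, a matrix protein named for its induction by TGF-beta, was 4.21, 3.79 and 4.20 in sham, 4.32, 4.67 and 4.27 in NX-vehicle, 4.11, 4.03 and 4.25 with paricalcitol, 3.98, 4.03 and 3.90 with alfacalcidol, and 4.24, 4.37 and 4.37 with VS-105. The NX-vehicle arrays were above all sham, paricalcitol and alfacalcidol arrays, and the alfacalcidol arrays were within the sham range. No difference of Tgfbi passed in the fit of the deposited values with equal weights. Ltbp1, which anchors latent TGF-beta in the matrix, had means of 5.32 in sham, 5.38 in NX-vehicle, 6.14 with paricalcitol, 6.00 with alfacalcidol and 5.49 with VS-105. Ltbp3 and Ltbp4, its latent complex relatives, differed from sham by 0.28 in size or less in every group.

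Of the receptors, 1 of 12 passed, with VS-105 against sham (8.33%, beside 15.9% of all features). Acvr1 encodes a type I receptor for BMPs and activins. Its signal was -0.27, -0.87 and 0.04 in sham, -0.17, 0.39 and 0.11 in NX-vehicle, 0.07, 0.59 and 0.42 with paricalcitol, 0.91, -0.14 and 0.71 with alfacalcidol, and 0.57, 0.78 and 0.62 with VS-105. The VS-105 arrays were close together and above every sham and NX-vehicle array. Acvr1 rose by 1.02 against sham with VS-105, a 2.04-fold difference (SE 0.28, adjusted p = 0.0307), and was 0.54 above NX-vehicle (adjusted p = 0.268). It did not pass without sham array 1 or 2 or without any 1 NX-VS-105 array (adjusted p between 0.0600 and 0.101).

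Tgfbr1, the type I receptor of TGF-beta, was 3.84, 3.08 and 3.53 in sham, 3.40, 4.39 and 4.18 in NX-vehicle, 4.04, 4.96 and 4.58 with paricalcitol, 4.49, 4.22 and 4.30 with alfacalcidol, and 4.30, 3.90 and 3.29 with VS-105. Paricalcitol and alfacalcidol arrays lay above all sham arrays, and VS-105 and NX-vehicle overlapped with sham. The difference between paricalcitol and sham was 1.05 (SE 0.32, adjusted p = 0.0636). Its partner Tgfbr2, the type II receptor, had its highest mean in sham (1.34) and means of 0.97 in NX-vehicle, 0.76 with paricalcitol, 0.76 with alfacalcidol and 0.73 with VS-105, and did not pass. Bmpr1a and Bmpr1b, the BMP type I receptors, were 0.53 above and 1.07 below sham with VS-105 (adjusted p = 0.213 and 0.0505). Bmpr2, their type II partner, was 0.15 to 0.76 above sham over the 4 NX groups, and Eng, the endothelial coreceptor endoglin, 0.24 to 0.61 above it. Acvrl1, an endothelial type I receptor, differed from sham by -0.01 to 0.22.

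For some members tissue markers varied along with the values, a pair of receptor genes among them. Acvr1c, an activin-type receptor prominent in fat cells, ranged from 1.46 to 4.85 over the arrays, and within NX-vehicle alone it was 4.85, 1.82 and 1.74. The mean of 7 of 9 white adipocyte genes was 6.88, 4.06 and 4.32 on the same 3 arrays, and over all arrays Acvr1c was lowest (1.46) where that mean was lowest (4.02). The VS-105 group had Acvr1c values of 4.62, 3.59 and 4.48 and the adipocyte mean between 5.68 and 6.71, and no adipocyte gene measured was below -2.71 on every array. Acvr2a, an activin type II receptor, was 2.17 on NX-VS-105 array 1, the array with the high skeletal muscle genes, and between -2.42 and -0.84 on the other arrays. The same array held the highest of all values of Tgfb1 (3.14), Ltbp2 (8.49), Smad7 (6.56), Id1 (5.62), Id3 (4.92) and Id4 (5.62). The VS-105 means of these genes include it. Smad6, Tgfbr1, Ltbp1, Tgfb1, Smad7 and Fstl3, named here after their values were seen, were among the members that ran against the adipocyte mean. Tgfbr1, Ltbp1, Tgfb1, Smad7 and Fstl3 were lowest within each of the 5 groups on the array where that mean was highest. Smad6 was so on sham array 2, NX-vehicle array 1, NX-paricalcitol array 1 and NX-VS-105 array 3 (2.82, 3.43, 4.00 and 3.71). With alfacalcidol Smad6 was instead highest (4.29) on that array. The part of these tissues in the members' values was not tested.

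**Figure D3:**
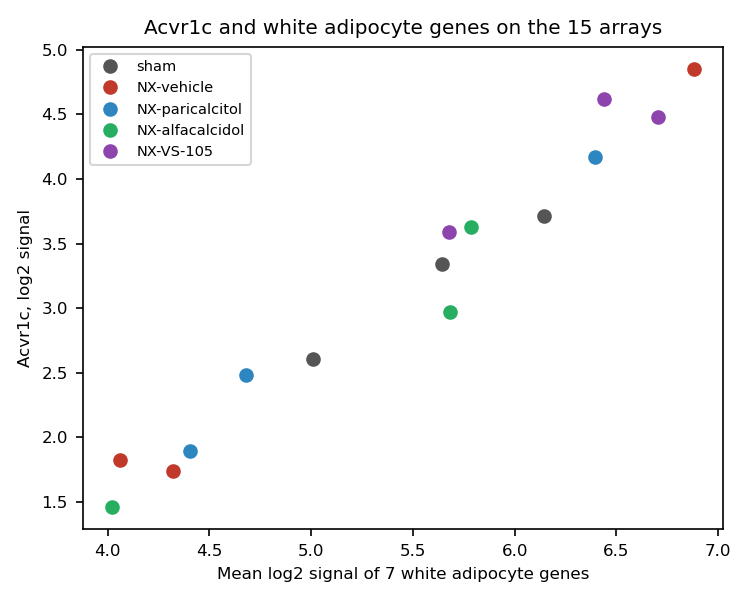
Log2 signal of Acvr1c against the mean log2 signal of 7 white adipocyte genes, with 1 point per array and colours for the 5 groups. The lowest Acvr1c value (1.46) stands at the lowest adipocyte mean (4.02) and the highest (4.85) at the highest mean (6.88).

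Among the Smads and their modulators 1 of 10 passed, with paricalcitol against sham (10%, beside 6.98% of all features). Smad6 is the inhibitory Smad of the BMP branch and is itself induced by BMP. Its signal was 3.69, 2.82 and 3.27 in sham, 3.43, 4.24 and 3.98 in NX-vehicle, 4.00, 4.92 and 4.66 with paricalcitol, 4.10, 4.29 and 3.90 with alfacalcidol, and 4.83, 4.18 and 3.71 with VS-105. All 9 compound arrays were above the sham arrays, VS-105 array 3 by the least, and 1 NX-vehicle array fell within the sham range. Smad6 rose by 1.27 against sham with paricalcitol, a 2.40-fold difference (SE 0.33, adjusted p = 0.0430). It stood 0.98 above sham with VS-105 (adjusted p = 0.0577) and 0.84 with alfacalcidol (adjusted p = 0.133). The means of paricalcitol and NX-vehicle were 4.53 and 3.88, and that comparison did not pass. The difference between paricalcitol and sham did not pass without any 1 of 8 arrays, sham arrays 2 and 3, NX-vehicle array 3, NX-paricalcitol arrays 2 and 3, NX-alfacalcidol arrays 1 and 3 and NX-VS-105 array 2 (adjusted p between 0.0551 and 0.184). With quantile normalization it did not pass either (0.0538).

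Skil, a nuclear corepressor of Smads also called SnoN, was 2.40, 1.64 and 1.68 in sham, 1.76, 2.00 and 2.12 in NX-vehicle, 1.78, 2.26 and 1.84 with paricalcitol, 1.92, 2.18 and 1.96 with alfacalcidol, and 1.49, 1.28 and 0.89 with VS-105. Its 3 VS-105 arrays were below the other 12 arrays. The difference was -0.69 against sham (adjusted p = 0.0519) and -0.74 against NX-vehicle (adjusted p = 0.0795), and neither passed with all 15 arrays weighted equally on the deposited scale. Smad7, the general inhibitory Smad, was 0.94 above sham with alfacalcidol (adjusted p = 0.124). Smad9, a BMP Smad, was 0.01 to 0.44 above sham over the 4 NX groups. Smurf2, a ubiquitin ligase that removes receptors and Smads, was 0.86 above sham with paricalcitol (adjusted p = 0.0757). Smad2, of the TGF-beta and activin branch, was 0.28 to 0.56 above sham over the 4 NX groups. The BMP Smads Smad1 and Smad5 and the shared Smad4 differed from sham by 0.37 in size or less in every group.

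Of the 9 secreted antagonists, 2 passed with VS-105 against sham (22.2%, beside 15.9% of all features), 1 with alfacalcidol (11.1%, beside 1.75%) and 1 with paricalcitol (11.1%, beside 6.98%). Fst, which encodes follistatin, a protein that traps activins, fell in 2 compound groups. Its signal was 3.30, 3.23 and 3.15 in sham, 3.10, 2.81 and 2.59 in NX-vehicle, 2.88, 2.55 and 2.26 with paricalcitol, 1.72, 2.39 and 1.35 with alfacalcidol, and 2.56, 2.08 and 2.47 with VS-105. Every NX array lay below every sham array, and alfacalcidol and VS-105 arrays also lay below every NX-vehicle array. Against sham (3.23 ± 0.08, SD, n = 3) Fst fell by 1.41 with alfacalcidol (1.82 ± 0.53), which left sham 2.65-fold higher (SE 0.25, adjusted p = 0.0215). With VS-105 Fst fell by 0.86 (SE 0.25, adjusted p = 0.0359), and the difference with paricalcitol was -0.67 (adjusted p = 0.100). Fst passed the F test over the 5 groups (adjusted p = 0.0344). The alfacalcidol difference was lost without sham array 2 or NX-alfacalcidol array 1 or 3 (adjusted p up to 0.0909), and the VS-105 difference without any 1 array of sham or NX-VS-105 (up to 0.103).

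Grem1, which encodes the BMP antagonist gremlin, was higher with paricalcitol than in sham. Its signal was -2.57, -0.66 and -0.98 in sham, -0.44, -0.34 and -0.15 in NX-vehicle, -0.32, 1.90 and -0.07 with paricalcitol, -0.25, -0.46 and -0.28 with alfacalcidol, and 0.42, 0.22 and 0.05 with VS-105. All NX arrays were above all sham arrays, and 1 sham array and 1 paricalcitol array were far from their groups. Grem1 rose by 1.91 with paricalcitol (SE 0.53, adjusted p = 0.0496), a difference that passed in only 1 of the 15 fits that each left out 1 array, the one without NX-paricalcitol array 1 (adjusted p between 0.0513 and 0.187 in the rest). Without each array in turn the change from sham ran from 1.21 to 2.32. The mean was -0.31 in NX-vehicle and 0.51 with paricalcitol, a difference that did not pass.

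Chrdl1, a chordin-like BMP antagonist, was 1.62, 2.65 and 2.38 in sham, 1.64, 1.26 and 0.96 in NX-vehicle, 1.67, 0.63 and 0.66 with paricalcitol, 1.43, 1.78 and 1.51 with alfacalcidol, and -0.32, 1.63 and 0.98 with VS-105. The groups overlapped: VS-105 array 2 was level with sham array 1. Chrdl1 fell by 1.45 against sham with VS-105 (SE 0.44, adjusted p = 0.0432). Its mean was 2.22 in sham, 1.29 in NX-vehicle and 0.76 with VS-105, and VS-105 against NX-vehicle did not pass. The lowest value, -0.32, was on NX-VS-105 array 1, the array with the high skeletal muscle genes, whose part was not tested. The difference from sham did not pass without any 1 of 11 arrays, the 3 of sham, NX-vehicle arrays 2 and 3, NX-paricalcitol arrays 2 and 3, NX-alfacalcidol arrays 1 and 3 and NX-VS-105 arrays 1 and 3 (adjusted p up to 0.128), and its size ran from -1.89 to -0.91.

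Chrd itself, which encodes chordin, was 0.99, 0.84 and 1.00 in sham, 1.02, 1.06 and 0.81 in NX-vehicle, 0.70, 0.90 and 0.96 with paricalcitol, 0.38, 0.69 and 0.54 with alfacalcidol, and 0.32, 0.69 and 0.72 with VS-105. Alfacalcidol and VS-105 arrays were below all sham and NX-vehicle arrays, by a small margin. Across the class, 6 of 9 genes had a lower mean than sham with paricalcitol, 6 with alfacalcidol and 7 with VS-105, and the class medians were -0.07, -0.41 and -0.37, beside 0.10, 0.14 and 0.06 for all features. The genes that did not follow were Grem1, Fstl3 and Nbl1 in the paricalcitol and alfacalcidol groups and Grem1 and Nbl1 with VS-105. Nbl1, a BMP antagonist of the same cystine-knot family, was between 5.09 and 5.55 on every array. Fstl4, a follistatin-like gene, differed from sham by -0.61 to 0.14.

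Markers of other cell types also differed between the groups. The mean of 10 of 11 macrophage genes lay between 2.08 and 2.47 in sham, 2.67 and 3.27 in NX-vehicle, 2.87 and 3.14 with paricalcitol, 2.30 and 2.42 with alfacalcidol, and 2.55 and 3.35 with VS-105. The mean of 4 of 8 platelet genes was between 2.71 and 3.18 in sham and at most 1.99 on every NX array. A mean of 2 mesothelium genes, of 8 listed, lay between 2.26 and 2.44 in sham and at most at 1.98 on the NX arrays. The 2 genes did not move alike: in NX-vehicle and with VS-105, 1 was higher and 1 lower than sham. Both were lower with paricalcitol and alfacalcidol. In each NX group only 1 of the 2 had arrays that did not overlap with sham, so this mean is not read as a change of mesothelium. The mean of 3 of 8 T cell genes was between -0.44 and 0.57 in sham and between -1.43 and -0.69 on the NX arrays. Fibroblast genes, 10 of 10 measured, overlapped between sham (6.69 to 7.12) and VS-105 (6.31 to 6.81). Their means with VS-105 and with alfacalcidol (6.49 to 6.72) lay below all NX-vehicle arrays (6.91 to 7.34). The mean of 9 of 10 endothelium genes was 2.70 to 3.15 with alfacalcidol, below all sham and NX-vehicle arrays (3.18 to 3.58). The smooth muscle mean was 7.88 to 8.14 with alfacalcidol, above all NX-vehicle arrays (7.28 to 7.74) and overlapping with sham. No measured gene of these lists was below -2.71 on every array, and the part of these cells in the members' values was not tested.

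**Figure D4:**
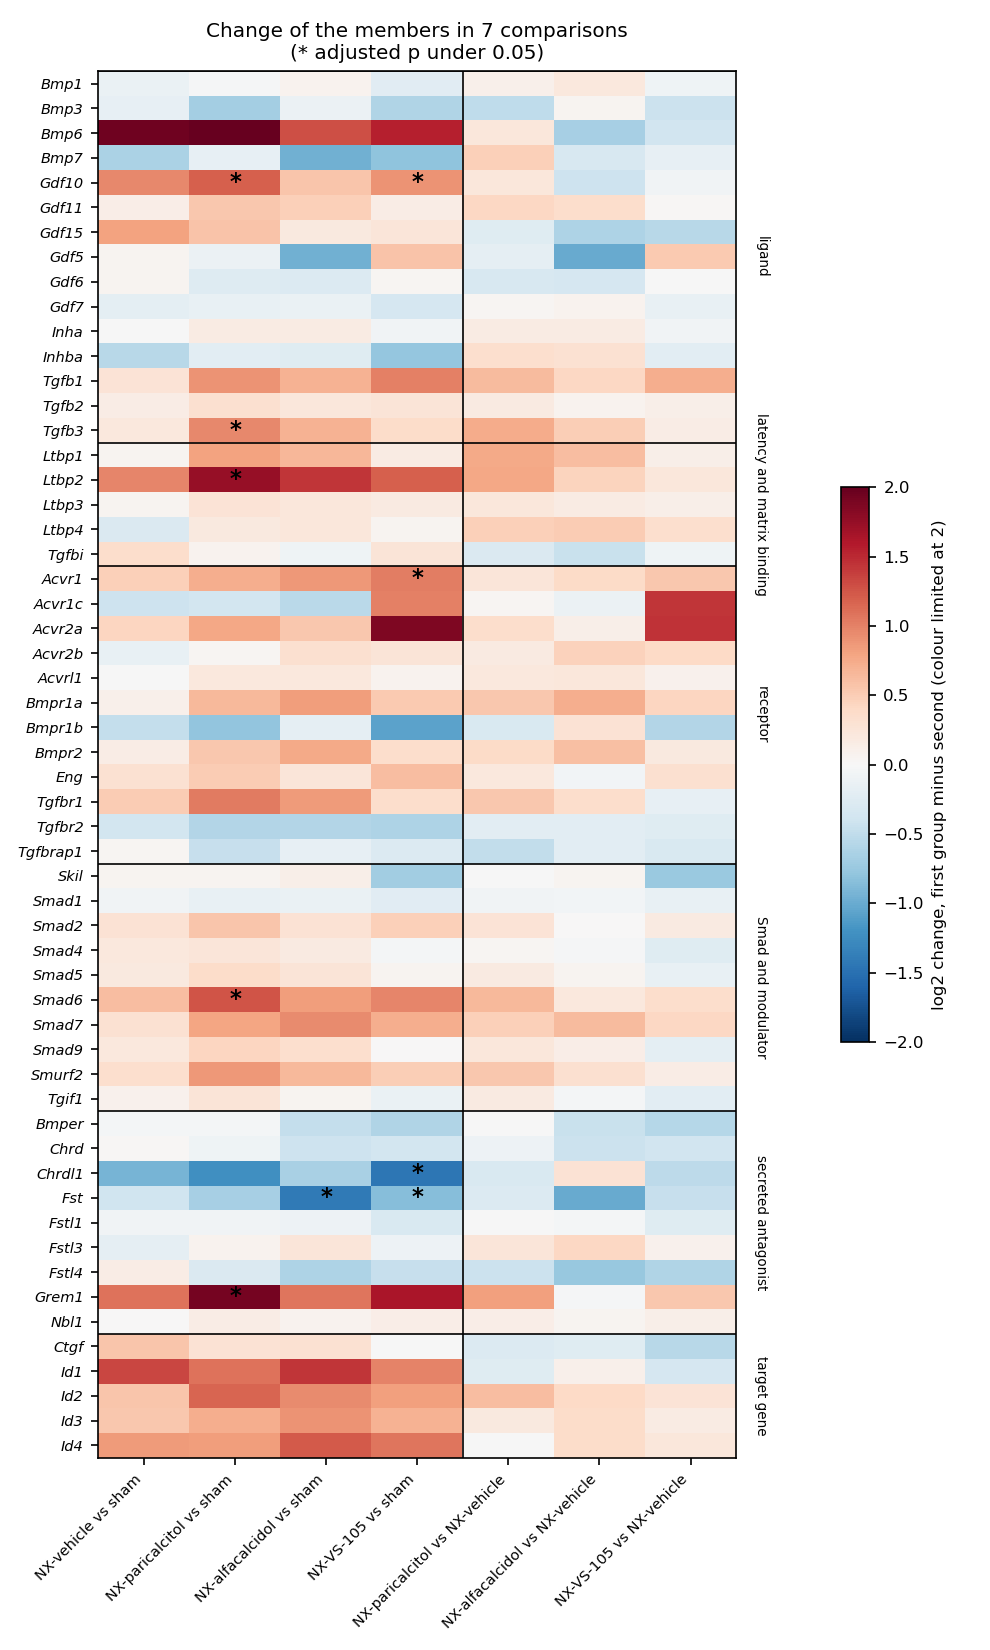
Change on the log2 scale of each of the 56 members (rows, ordered by role) in 7 comparisons (columns), first group minus second. Red is higher and blue lower in the first group, the colour stops at 2, and a star marks an adjusted p under 0.05. The 10 stars comprise 5 with paricalcitol, 4 with VS-105 and 1 with alfacalcidol, all against sham.

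All but 1 of the target gene means in the NX groups lay above sham, but none passed. Id1 to Id4 encode inhibitors of DNA binding, the best known direct targets of BMP Smads, and Ctgf (current symbol Ccn2) encodes a matrix protein induced by TGF-beta. All 5 had higher means than sham in NX-vehicle, with paricalcitol and with alfacalcidol, and 4 of 5 with VS-105. The class medians were 0.56, 0.84, 0.95 and 0.82, beside -0.04, 0.10, 0.14 and 0.06 for all features. Ctgf with VS-105 was level with sham (8.82 in each).

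Id1 was 4.17, 3.21 and 3.25 in sham, 4.66, 5.47 and 4.52 in NX-vehicle, 4.36, 4.86 and 4.69 with paricalcitol, 4.91, 4.93 and 5.09 with alfacalcidol, and 5.62, 4.34 and 3.67 with VS-105. The NX-vehicle, paricalcitol and alfacalcidol arrays were above all sham arrays, and VS-105 array 3 was within the sham range. Alfacalcidol stood 1.43 above sham (SE 0.42, adjusted p = 0.0779). Id1 is the other member in the authors' deposited table, which gives folds of 2.53 for vehicle, 2.13 for paricalcitol, 2.70 for alfacalcidol and 2.00 for VS-105 with unadjusted p-values from 0.00385 to 0.0319.

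Id2 was 5.10, 4.48 and 4.81 in sham, 4.62, 6.12 and 5.33 in NX-vehicle, 5.48, 6.07 and 6.35 with paricalcitol, 5.42, 5.76 and 6.07 with alfacalcidol, and 5.77, 5.58 and 5.52 with VS-105. All compound arrays were above all sham arrays, and NX-vehicle spanned from the sham range to the compound range. Id2 stood 1.17 above sham with paricalcitol (SE 0.33, adjusted p = 0.0527). Id3 stood 0.54 to 0.90 above sham over the 4 NX groups, and Id4 0.84 to 1.22 above it.

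**Figure D5:**
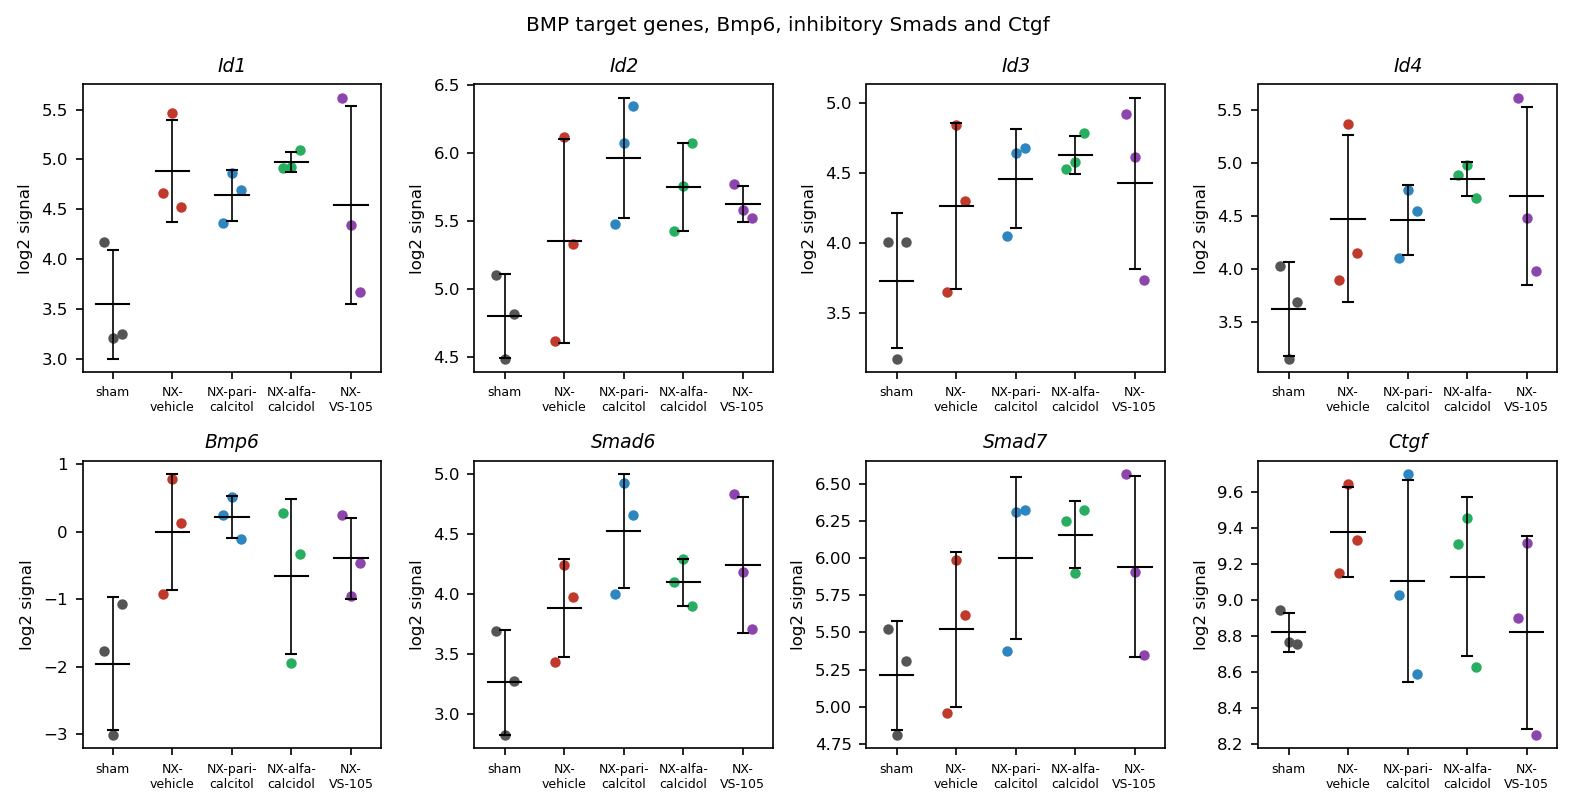
Log2 signal on the 15 arrays of Id1 to Id4, Bmp6, the inhibitory Smads Smad6 and Smad7, and Ctgf, with points for arrays, long bars for group means and whiskers of 1 SD (n = 3). Sham has the lowest mean in all panels except Ctgf, where sham and VS-105 are level at 8.82. The NX-vehicle and VS-105 groups spread widely in several panels.

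The compounds were also set against each other, at doses that differ (0.08, 0.04 and 0.01 µg/kg), and compound and dose cannot be told apart. In 3 such pairs 0 of 56 members passed, beside 0.0445% of all features for alfacalcidol against paricalcitol, 0.0191% for VS-105 against paricalcitol and 0.0318% for VS-105 against alfacalcidol. Unadjusted p was under 0.05 for 3, 7 and 5 members in that order, and for 4.66%, 13.5% and 18.4% of all features. Arrays did not overlap for 5, 5 and 10 members, and for 9.96%, 19.5% and 30.1% of all features. Fst was 0.74 lower with alfacalcidol than with paricalcitol (95% interval -1.28 to -0.21, adjusted p = 0.762), and Gdf10 0.65 lower (-1.24 to -0.06, adjusted p = 0.946). The third smallest p of that pair was that of Chrd, at -0.32 (-0.62 to -0.02, adjusted p = 1). VS-105 was below paricalcitol for Skil, by -0.74 (-1.22 to -0.26, adjusted p = 0.242), Tgfb3, by -0.60 (-1.001 to -0.19, adjusted p = 0.258), and Smad4, by -0.28 (-0.50 to -0.07, adjusted p = 0.280). Against alfacalcidol, VS-105 was lower for Skil (-0.80, -1.28 to -0.32, adjusted p = 0.170) and Bmpr1b (-0.88, -1.62 to -0.14, adjusted p = 0.227) and higher for Tgfbi (0.35, 0.05 to 0.66, adjusted p = 0.238). The intervals are wide enough that these tests do not show the compounds to act alike.

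Genes elsewhere in the pathway were read from a list of 53, of which 31 were on the arrays. None passed in NX-vehicle against sham, and with VS-105 against NX-vehicle 2 were higher and 1 lower (9.68%, beside 4.55% of all features). Against sham 1 was higher and 1 lower with paricalcitol (6.45%, beside 6.98%) and with alfacalcidol (6.45%, beside 1.75%), and 3 higher and 3 lower with VS-105 (19.4%, beside 15.9%). Against sham the list's medians were -0.07, 0.16, 0.22 and 0.10 in the order vehicle, paricalcitol, alfacalcidol and VS-105, beside -0.04, 0.10, 0.14 and 0.06 for all features. Itgb8, the integrin subunit that releases TGF-beta from its latent complex, was 1.09, 0.86 and 0.56 in sham and 0.40, -0.04 and 0.26 in NX-vehicle. It was -0.49, -0.47 and -0.94 with paricalcitol, -0.87, -0.08 and -0.55 with alfacalcidol, and -1.58, -0.88 and -1.19 with VS-105. Every compound array was below every sham and NX-vehicle array. Itgb8 fell by 1.47, 1.33 and 2.05 against sham (adjusted p = 0.0149, 0.0223 and 0.00140 in the same order) and by 1.42 with VS-105 against NX-vehicle (adjusted p = 0.0133).

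Ppm1a, a phosphatase that removes the activating phosphate from Smads, rose by 0.52, 0.59 and 0.78 against sham in the paricalcitol, alfacalcidol and VS-105 groups (adjusted p = 0.0304, 0.0309 and 0.00416). It was 0.63 higher with VS-105 than with NX-vehicle (adjusted p = 0.0186), and its 3 VS-105 arrays, from 2.82 to 2.95, lay above the other 12. Furin, a protease that cleaves TGF-beta precursors, was the further gene higher with VS-105 against NX-vehicle, by 0.40 (adjusted p = 0.0428). With VS-105 against sham Furin rose by 0.34 (adjusted p = 0.0426) and Bambi, a decoy receptor, by 0.64 (adjusted p = 0.0477). Kcp, a BMP enhancer of the chordin type, fell by 1.17 (adjusted p = 0.0330) and Map3k7, the TAK1 kinase of the Smad-independent branch, by 0.94 (adjusted p = 0.0118). Furin, Bambi, Kcp and Map3k7 were named after their values were seen.

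Genes known to respond to TGF-beta or BMP came from a second list, with 33 of 38 measured and Tgfbi counted among the members as well. With paricalcitol against sham 5 were higher and 1 lower (18.2%, beside 6.98% of all features), with alfacalcidol 2 higher and 0 lower (6.06%, beside 1.75%), and with VS-105 3 higher and 3 lower (18.2%, beside 15.9%). The list's medians against sham were 0.17 for NX-vehicle, 0.26 with paricalcitol, 0.01 with alfacalcidol and 0.07 with VS-105, beside -0.04, 0.10, 0.14 and 0.06 for all features. In NX-vehicle against sham none passed, and with VS-105 against NX-vehicle Hey1, a Notch and BMP responsive gene, was higher by 0.45 (adjusted p = 0.0447). Bhlhe40, a transcription repressor, had the smallest F-test p of the list and rose by 1.54, 1.72 and 1.81 against sham in the 3 compound groups (adjusted p = 0.0201, 0.0135 and 0.00450). Edn1, which encodes the vasoconstrictor endothelin-1, rose by 1.01 against sham with paricalcitol (adjusted p = 0.0328) and was level with sham under alfacalcidol (-1.21 in each). The following genes were named after their values were seen, and their changes are against sham. Atoh8, a BMP-responsive transcription factor of endothelium, rose by 1.03, 1.16 and 0.92 against sham with paricalcitol, alfacalcidol and VS-105 (adjusted p = 0.0313, 0.0336 and 0.0235). Cilp, a matrix protein that binds TGF-beta, rose by 1.62 with paricalcitol and 1.56 with VS-105 (adjusted p = 0.04996 and 0.0373), and Postn, the matrix gene periostin, by 1.90 with paricalcitol (adjusted p = 0.0471). Tsc22d1, a TGF-beta-stimulated transcription factor, fell by 0.80 with paricalcitol and by 0.74 with VS-105 (adjusted p = 0.0298 and 0.0183). With VS-105 the collagen gene Col1a2 fell by 0.56 (adjusted p = 0.0307) and Hey2, a transcription repressor, by 0.82 (adjusted p = 0.0460).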

How the data were processed

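Values were taken from the authors' deposited table, on a log2 scale, with 1 row for each of 15739 features on 15 arrays. Per the labels' protocols, RNA was purified with TriZol and labelled with Cy3 by the Agilent Low-Input Quick Amp kit. Partek 6.0 was used, per the submitters' processing notes. How background was corrected, arrays scaled and features chosen is not given in the sources used. Of the authors' comparisons with sham, each gene's deposited fold (a signed ratio) and p-value without adjustment were read.

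Group means were fitted to all 15 arrays and 15739 features with limma 3.58.1 (lmFit, eBayes) in R 4.3.3, with 10 residual and 2.62 prior degrees of freedom. Two-sided p-values were adjusted by Benjamini-Hochberg over all features within each of 10 comparisons, with a threshold of 0.05. The error behind each p is that among pools, each of 2 rats, and 3 arrays per group limit the precision. The fit was run on simulated data with independent noise for each gene and array. Such data lack differences shared by many genes on an array, so the run does not show the error rate here. The members, lists and tests were chosen with earlier results of these data known. Of 59 features with such names, 3 are left out by the rule and not reported here. Named were members past the threshold, the 2 of smallest F-test p per role, the 3 of smallest p per comparison, and the highest and lowest mean per role, whose levels are not ranked because probes differ in brightness.

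Replicate numbers were checked for pairing by correlating deviations from group means over features. NX-vehicle and NX-paricalcitol arrays of the same number gave 0.62, 0.52 and 0.26, so these were treated as paired in an added fit, and no other pair of groups did so for all 3 numbers. Alternatives were other scalings, a common floor, only features above the median mean, no moderation, an intensity trend, a replicate block, array weights, fewer groups and leaving out arrays. Promoter windows came from RefSeq (GRCr8), clipped at the annotated gene start.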

Additional observations from a re-analysis of the deposited data

How the results depend on the processing

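The counts of members past the threshold depended on the processing in 7 of 11 cases, and no named difference changed its sign. Of 815 recomputed values of named members, 695 stayed on their side of the threshold, 103 lost it, 17 gained it and 0 reversed. With array medians subtracted the counts against NX-vehicle were 2 for alfacalcidol (3.57%, beside 0.966% of all features) and 2 for VS-105 (3.57%, beside 4.42%). Against sham they were 3 for paricalcitol (5.36%, beside 6.51%), 2 for alfacalcidol (3.57%, beside 2.2%) and 9 for VS-105 (16.1%, beside 20.3%). Quantile normalization gave 1 for alfacalcidol (1.79%, beside 0.743%) and 1 for VS-105 (1.79%, beside 3.76%) against NX-vehicle. Against sham it gave 3 for paricalcitol (5.36%, beside 6.25%) and 11 for VS-105 (19.6%, beside 18.9%). Without moderation paricalcitol against sham had 1, VS-105 against sham 0 and the F test 0, and with an intensity trend VS-105 against sham had 10. Array weights, estimated gene by gene because the default estimate did not converge, gave 3, 12 and 3 against NX-vehicle and 18, 13 and 7 against sham (paricalcitol, alfacalcidol, VS-105), and 21 in the F test. With NX-vehicle arrays 2 and 3 both left out, the F test had 0. With only the 2 groups compared, all 3 compounds against sham had 0. Leaving out 1 array at a time gave 0 to 1 for VS-105 against NX-vehicle, 0 to 9 for paricalcitol, 0 to 2 for alfacalcidol and 0 to 8 for VS-105 against sham, 0 to 3 in the F test and 0 to 0 in the other 6 comparisons. For the fits other than the scalings, the share of all features that passed is not given here. Their counts are therefore not read as results about the members. The cause of these shifts was not tested.

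With the replicate number as a block over all 5 groups, paricalcitol against sham had 1 member and the F test 0. For NX-vehicle and NX-paricalcitol, whose numbers deviated together, the paired fit of the 2 groups, added after seeing the data, gave 0 members (Tgfb3 0.75, adjusted p = 0.0754), so that the block changed no call there. Low signals, as of Bmp6 and Gdf5, were close to the floor of some arrays.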
